A study of Gallus gallus with 16 samples.

Results

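Antioxidant and heme response genes protect cells from reactive oxygen species and from free heme. Here 10 of them were followed: HMOX1, NFE2L2, KEAP1, GCLC, GCLM, TXNRD1, PRDX1, SOD1, SOD2 and CAT. They were found by gene symbol in a table of histone mark peaks from the lens of the chick embryo. The table names 9 of the 10, out of 14100 genes in all, and gives them 151 of its 108520 peaks. KEAP1 is not analysed here.

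NRF2, the product of NFE2L2, is a transcription factor that KEAP1 marks for destruction until oxidants or electrophiles disable KEAP1. It then pairs with a small MAF protein at antioxidant response elements of genes for glutathione synthesis, thioredoxin reduction and heme breakdown. Lens fiber cells hold their crystallins for life, and glutathione is the main guard of these proteins against oxidation. Acetylation of histone H3 at lysine 27 (H3K27ac) marks active promoters and enhancers, and trimethylation at lysine 4 (H3K4me3) marks active promoters.

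The lenses came from White Leghorn embryos at embryonic day 13. Whole lenses were kept in serum-supplemented medium for 2 h at 21% oxygen (normoxia) or at 1% oxygen (hypoxia), and lenses with damage or opacity were discarded. Fiber cells were then dissected from 10 to 15 lenses per replicate and profiled by CUT&RUN, which uses antibody-bound nuclease to cut out the DNA around a mark. The extraction text instead speaks of 0 h or 2 h in low oxygen, which leaves unclear whether normoxia lenses were cultured at all. The labels list 2 H3K27ac libraries, 3 H3K4me3 libraries and 3 libraries of nonspecific IgG antibody per condition.

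The deposited table holds 1 list of peaks per mark and condition, 4 lists in all, with no value per library, no score and no p-value. The read depth behind each list is unknown, IgG was not analysed here, and no difference below has a replicate check or a test. The hypoxia H3K27ac list held 45734 peaks and the normoxia list 15511, a ratio of 2.95 against which the counts for single genes are read. The H3K4me3 lists held 24987 and 22288 peaks. Of 7 fiber cell markers, 6 are named in the table and each of those 6 had an H3K27ac promoter peak, in both conditions for 5 and in hypoxia only for ASL1 (delta crystallin, 1490 bp). CRYAA lacked an H3K4me3 promoter peak. Such peaks are common: of all 14100 genes, 9295 had an H3K27ac promoter peak and 10846 an H3K4me3 one. Of the 3 epithelial markers the table names PAX6 and CDH1, which had promoter peaks of both marks in both conditions. H3K27ac covered 6.60 and 16.6 kb at PAX6 in normoxia and hypoxia, and 0.956 and 0.432 kb at CDH1; the part of epithelial cells in the results was not tested. Of the 4 blood markers only PTPRC is named, with no promoter peak of either mark. Its H3K27ac elsewhere covered 6.09 kb (normoxia) and 19.2 kb (hypoxia), and its H3K4me3 8.25 and 7.85 kb; the part of blood cells was not tested either.

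A promoter peak lies at most 3000 bp from a transcript start by the distance given in the table. A promoter was called present in both lists if it had such a peak in each, or if its peak overlapped a peak of the other list by at least 1 bp. Coordinates are those of the chicken build galGal6, and strands and starts were worked out from the distances in the table.

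H3K27ac was listed at the promoters of 8 of the 9 genes, and for 5 of these in the hypoxia list only: HMOX1, TXNRD1, PRDX1, SOD2 and CAT. NFE2L2, GCLC and GCLM were in both lists, SOD1 was in neither, and no gene was in the normoxia list only. Of all 14100 genes in the table, 9295 had an H3K27ac promoter peak. These 9295 divided into 46.9% with the peak in both conditions, 47.0% in hypoxia only and 6.04% in normoxia only. The 5 of 8 genes in the hypoxia list only make 62.5%, and with 4 of 8 the share would be 50.0%, so the count is read as near that background. Of the 4 genes with H3K27ac peaks at any site in both lists, NFE2L2, GCLC, GCLM and SOD1, each had more covered length in hypoxia, as had 89.7% of such genes in the table.

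H3K4me3 differed less between the lists. It marked 7 of the 9 promoters in both conditions, TXNRD1 in hypoxia only and HMOX1 in neither. Of all 14100 genes, 10846 had an H3K4me3 promoter peak. These 10846 divided into 91.4%, 5.15% and 3.49% (both, hypoxia only, normoxia only). Covered H3K4me3 length was larger in hypoxia for 5 of the 7 genes marked in both and smaller for PRDX1 and SOD1. This held over all peaks and over promoter peaks. Of all genes with such peaks in both lists, 60.1% (all peaks) and 61.4% (promoter peaks) had more in hypoxia. Of the 5 genes with H3K27ac in hypoxia only, PRDX1, SOD2 and CAT had H3K4me3 at the promoter in both conditions, as had 77.5% of all genes of that kind.

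**Figure D1:**
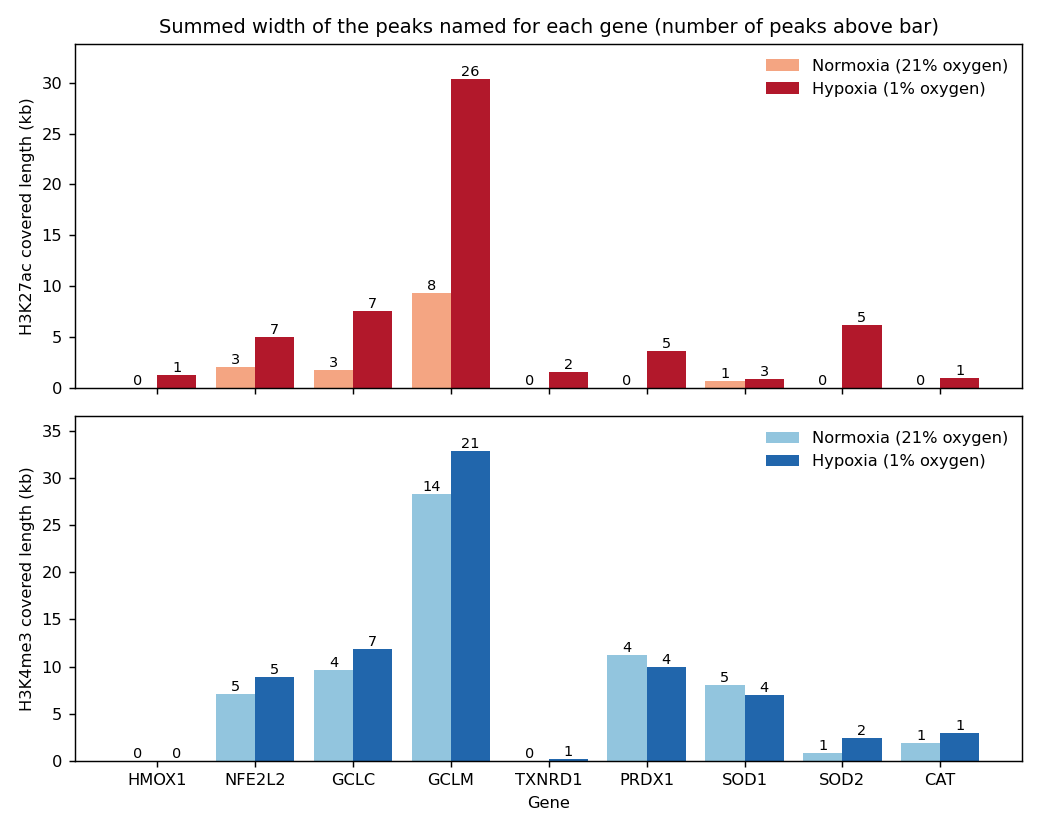
Summed width in kb of the peaks named for each gene (y axis) in the normoxia and hypoxia lists, for H3K27ac (upper panel) and H3K4me3 (lower panel), with the number of peaks above each bar and no replicates. HMOX1, TXNRD1, PRDX1, SOD2 and CAT have no H3K27ac peak in normoxia and 1 to 5 in hypoxia, and the bars of GCLM sum peaks over a span of 124 kb.

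NFE2L2 encodes NRF2 itself, and its main start carried both marks in both conditions. On chromosome 7 (plus strand), starts at 15795206 and 15795753 lay inside an H3K27ac peak of 1286 bp in normoxia (15794520 to 15795805). In hypoxia the peak there measured 2315 bp (15794285 to 15796599). Both sat wholly inside H3K4me3 peaks, 2524 bp wide in normoxia and 4847 bp wide in hypoxia. The peak of each mark was thus wider in the hypoxia list, where the H3K4me3 peak also spanned a separate normoxia peak of 356 bp. The normoxia H3K27ac peak was wider than the widest promoter peak of 83.1% of genes in that list, and the hypoxia peak wider than 87.0%.

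Within NFE2L2 a second site was marked in both conditions. It lay 3.3 to 3.5 kb past the start at 15803257, where H3K27ac measured 626 bp (normoxia) and 785 bp (hypoxia), each inside an H3K4me3 peak. A further H3K27ac site near the end of the gene measured 174 bp in normoxia and 676 bp in hypoxia. The other 4 H3K27ac peaks were in the hypoxia list alone: 3 upstream peaks of 185 to 217 bp and 1 of 644 bp in intron 2. An H3K4me3 peak of 2192 bp, 5732 bp upstream, was in the normoxia list alone. H3K4me3 peaks of 245 bp, 11569 bp upstream, and of 735 bp in intron 2 were in the hypoxia list alone. They overlapped hypoxia H3K27ac peaks by 129 and 386 bp. In sum the 3 normoxia H3K27ac peaks of NFE2L2 covered 2.09 kb and the 7 hypoxia peaks 5.04 kb, a ratio of 2.42 that was 1.49 with the hypoxia list reduced to as many of its widest peaks as the normoxia list holds. Its H3K4me3 covered 7.14 and 8.86 kb.

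GCLC encodes the catalytic subunit of glutamate cysteine ligase, which carries out the rate-limiting step of glutathione synthesis. It has starts at 88184018 and 88190276 on chromosome 3 (plus strand). The first start had broad H3K4me3, 5453 bp in normoxia and 7149 bp in hypoxia, wider than the widest promoter peaks of 90.4% and 93.8% of genes. No H3K27ac peak covered that first start in either list. The nearest hypoxia peak, of 857 bp, ended 1607 bp upstream of it.

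At the second GCLC start H3K27ac measured 517 bp in normoxia (88190737 to 88191253) and 2300 bp in hypoxia (88188665 to 88190964). H3K4me3 there measured 1729 and 1215 bp, narrower in the hypoxia list. An internal site over exon 2 of 16 had a normoxia H3K27ac peak of 708 bp and a hypoxia peak of 2430 bp (88195824 to 88198253), where H3K4me3 of 1092 bp was in the hypoxia list alone. A site near exon 11 had 559 bp of H3K27ac in normoxia and 503 bp in hypoxia. Peaks in intron 3 (459 bp) and intron 12 (773 bp) were in the hypoxia list alone. For GCLC as a whole, 3 normoxia H3K27ac peaks covered 1.78 kb and 7 hypoxia peaks 7.59 kb.

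GCLM encodes the modifier subunit, which raises the efficiency of the same enzyme. At its first start, 14159785 on chromosome 8 (plus strand), H3K27ac was wider in normoxia. The normoxia peak measured 1646 bp (14159874 to 14161519) and the hypoxia peak 188 bp (14160809 to 14160996), 1024 bp downstream of the start. Both lay inside H3K4me3 peaks of 4441 and 3952 bp. This order is the reverse of that at NFE2L2 and at the second GCLC start. At the next start, 14164627, H3K27ac of 731 bp was in the hypoxia list alone. Summed over every promoter peak under its name, GCLM had 1646 bp of H3K27ac in normoxia and 3249 bp in hypoxia. By that sum NFE2L2, GCLC and GCLM were each larger in hypoxia, as were 78.8% of all genes with H3K27ac promoter peaks in both lists.

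The name GCLM in the table covers more than these starts. It was given to 69 peaks over 124 kb, with 6 starts that span 84.8 kb. In the RefSeq gene order of another chicken assembly (GRCg7b), DNTTIP2 and BCAR3 follow GCLM, and neither has a row in the peak table used here. Which of the 69 peaks belong to GCLM therefore cannot be told in full from the table. Its genomic classes place the hypoxia H3K27ac peak of 1351 bp and the normoxia H3K4me3 peak of 951 bp in exons of FNBP1L. Those peaks are still counted under the name. The 8 normoxia and 26 hypoxia H3K27ac peaks, over 9.39 and 30.3 kb, are totals under the name. The widest H3K4me3 peaks under the name, 12341 bp in normoxia and 10281 bp in hypoxia, began 55.2 and 55.1 kb past the first start. They lay 17181 and 19365 bp upstream of the start the table assigns them to.

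**Figure D2:**
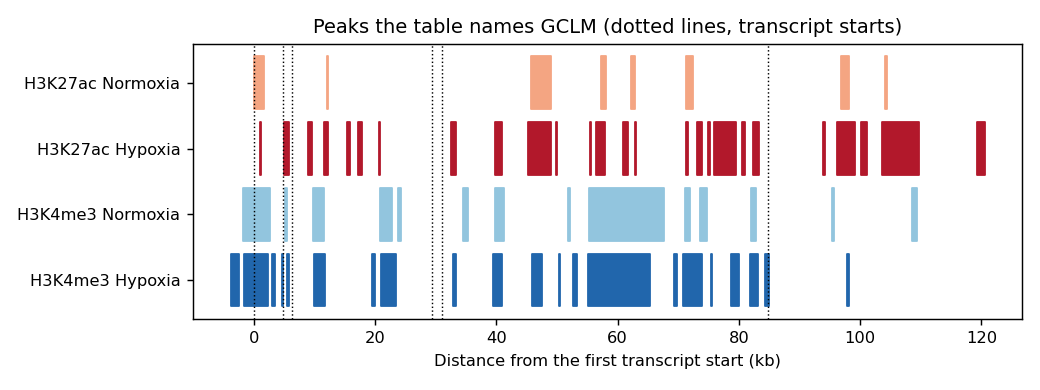
Peaks under the name GCLM in the 4 lists by distance in kb from the first start, with dotted lines at the 6 starts. At the first start the normoxia H3K27ac bar (1646 bp) is wider than the hypoxia bar (188 bp), and broad H3K4me3 of 12341 and 10281 bp lies from 55.1 kb on with no start inside it.

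TXNRD1 encodes cytosolic thioredoxin reductase, which returns thioredoxin to its reduced form with NADPH. The normoxia lists held no peak of either mark under its name. Hypoxia H3K27ac peaks of 804 and 805 bp lay at its starts on chromosome 1 (minus strand), the first over the start at 54620980 and the second 234 bp upstream of the start at 54608578. H3K4me3 was limited to 1 peak of 193 bp beside the start at 54620980, narrower than the widest promoter peak of all but 0.931% of genes in that list. The nearest normoxia peaks of any name lay 11182 bp (H3K27ac) and 10892 bp (H3K4me3) from that start.

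PRDX1 encodes a peroxiredoxin, a peroxidase that thioredoxin reduces after each cycle. Its promoter carried the widest H3K4me3 promoter peak of the 9 genes in normoxia. The peak measured 8288 bp in normoxia (chromosome 8, 21504300 to 21512587) and 6752 bp in hypoxia (21504066 to 21510817), wider than in 96.5% and 93.0% of genes. The table gives these peaks to AKR1A1, an aldehyde reductase gene, as well. No H3K27ac peak was named for PRDX1 in normoxia, and the nearest one lay 14294 bp from the start at 21506747.

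In hypoxia PRDX1 had 5 H3K27ac peaks over 3.65 kb. Those of 952 and 324 bp lay within the broad H3K4me3 peak, and those of 1229 and 318 bp lay 4627 and 6952 bp downstream of the start. The remaining one, of 823 bp, lay 3560 bp from a further start at 21528251, where H3K4me3 peaks of 1722 bp (normoxia) and 1351 bp (hypoxia) are also named NASP. PRDX1 had less H3K4me3 covered length in hypoxia, 9.92 against 11.2 kb.

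SOD1 encodes the copper and zinc superoxide dismutase of the cytosol. Its starts at 105995337 and 105995645 on chromosome 1 (plus strand) lay in H3K4me3 peaks of 4330 bp (normoxia) and 3773 bp (hypoxia), while neither list had H3K27ac within 3000 bp. Of all genes with an H3K4me3 promoter peak, 22.7% had no H3K27ac promoter peak. The nearest H3K27ac lay 5901 bp upstream in normoxia (773 bp) and 4125 bp upstream in hypoxia (203 bp). At the site of the normoxia peak the hypoxia peak measured 372 bp, and the H3K4me3 of 1536 bp there was in the normoxia list alone.

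SOD2 encodes the manganese superoxide dismutase of mitochondria. The normoxia list held no H3K27ac peak under its name, and the nearest lay 32992 bp from its start at 45740686 on chromosome 3 (plus strand). Hypoxia H3K27ac under its name formed 5 peaks over 6.25 kb. A peak of 757 bp covered the start and another of 910 bp lay 2057 bp downstream. Wider peaks of 2069 and 1456 bp lay upstream, inside the neighbouring gene WTAP, 12483 and 5810 bp from the SOD2 start, and 1 of 1061 bp lay 8577 bp downstream. H3K4me3 at the start measured 878 bp in normoxia and 2254 bp in hypoxia. The normoxia peak was wider than 13.9% of genes' widest promoter peaks and the hypoxia peak wider than 49.3%.

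CAT encodes catalase, which breaks down hydrogen peroxide. Its marks were limited to the promoter on chromosome 5. H3K4me3 measured 1866 bp in normoxia (18920645 to 18922510) and 2944 bp in hypoxia (18919774 to 18922717). H3K27ac of 1053 bp (18920703 to 18921755) was in the hypoxia list alone, wholly inside the H3K4me3.

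HMOX1 encodes heme oxygenase 1, the inducible enzyme that opens the heme ring and a classical NRF2 target in mammals. The table gives it a single peak, H3K27ac of 1361 bp in hypoxia (chromosome 1, 52111055 to 52112415), 1622 bp upstream of its start by the table's distance. That peak was wider than the widest promoter peak of 67.1% of genes in the list. No H3K4me3 peak in either condition was named for HMOX1. Measured from the edges of the HMOX1 H3K27ac peak, the nearest ones belonged to MCM5, 8.53 kb away in normoxia and 9.14 kb in hypoxia. The nearest normoxia H3K27ac peak lay 95.4 kb from the HMOX1 peak. Of genes with H3K27ac at the promoter in hypoxia only, 16.0% likewise had no H3K4me3 promoter peak, against 9.81% of all genes with an H3K27ac promoter peak.

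**Figure D3:**
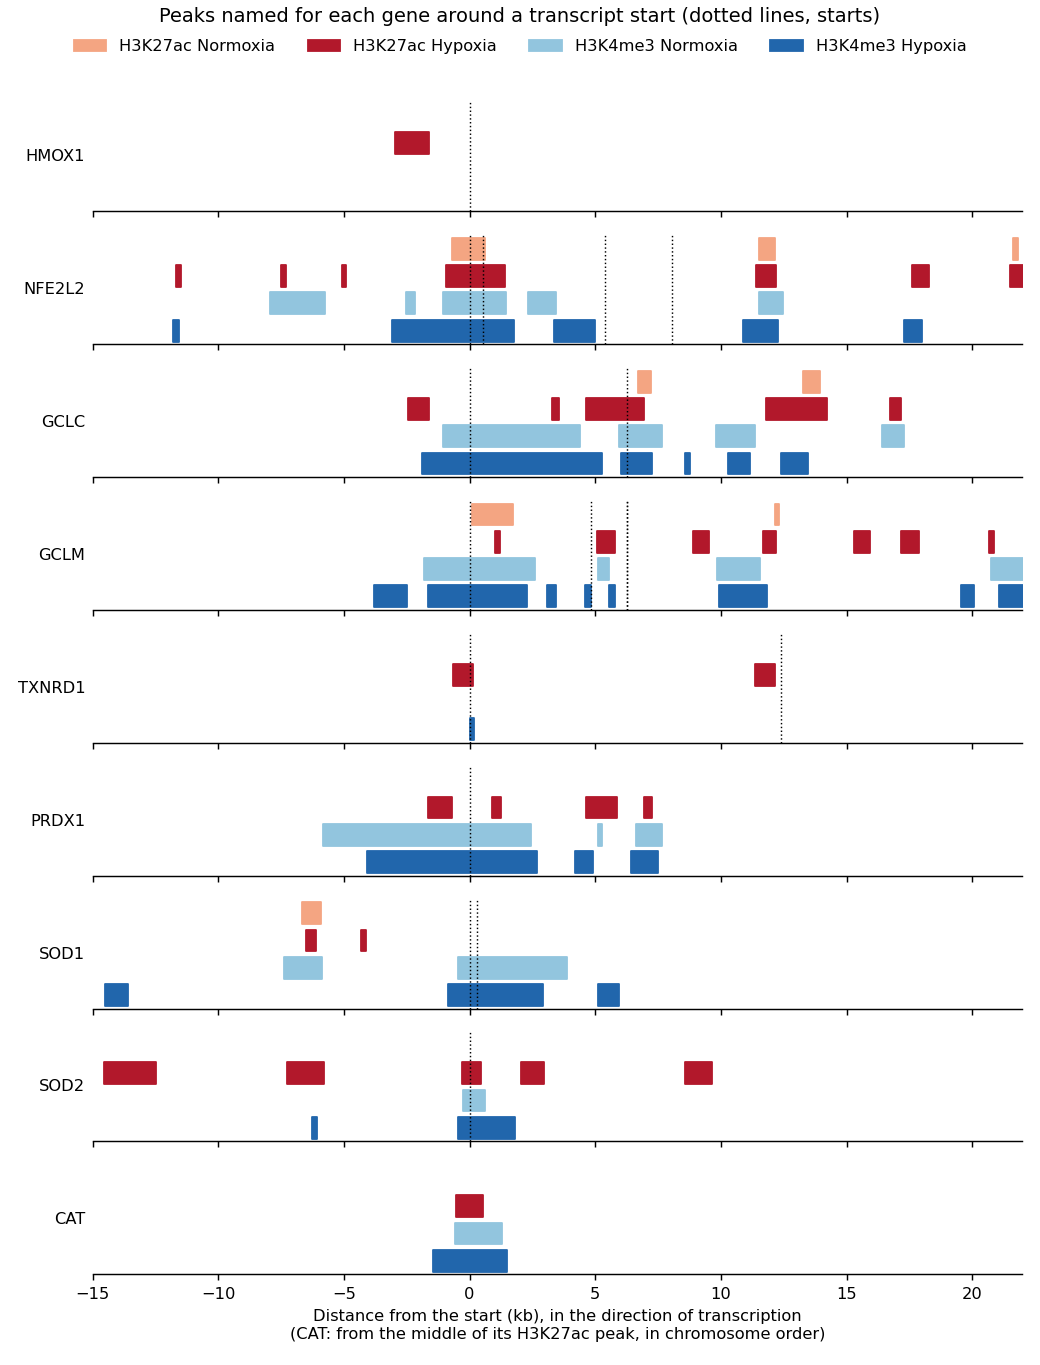
Peaks under the name of each of the 9 genes in the 4 lists, by distance in kb from a transcript start (first starts for NFE2L2, GCLC, GCLM, SOD1 and SOD2, 54620980 for TXNRD1, 21506747 for PRDX1, the table's distance for HMOX1, and the middle of the H3K27ac peak for CAT). Peaks beyond the ends of the x axis are not drawn, among them peaks of GCLC, GCLM, PRDX1 and SOD1. Normoxia H3K27ac bars appear at NFE2L2, GCLC, GCLM and SOD1, and the single HMOX1 bar lies upstream of the start with no H3K4me3 bar in the row.

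The 15 normoxia H3K27ac peaks of these genes came from NFE2L2, GCLC, GCLM and SOD1 alone, 8 of them under the name GCLM. Each of the 15 overlapped a hypoxia peak by at least 1 bp, and so did each of the 7 outside GCLM. The share over all normoxia H3K27ac peaks was 60.7%. Peaks of the same gene are not independent, and the difference was not tested. The overlap can be small: at the first GCLM start a peak of 1646 bp met one of 188 bp. Of the 57 hypoxia peaks, 15 overlapped a normoxia peak, against 19.3% of all. H3K4me3 of the same condition overlapped 32 of the 57 hypoxia H3K27ac peaks, where the share over all hypoxia peaks was 35.6%. In normoxia it overlapped 8 of the 15 H3K27ac peaks, where the share over all was 50.3%. Without GCLM the overlaps were 17 of 31 in hypoxia and 4 of 7 in normoxia. Summed over the 9 genes, H3K27ac covered 14.0 kb in the 15 normoxia peaks and 57.8 kb in the 57 hypoxia peaks, a ratio of 4.12. Without GCLM the 7 and 31 peaks covered 4.64 and 27.5 kb, a ratio of 5.91. Over the whole lists the ratio of covered length was 3.345. Per gene the ratio had a median of 2.82 over the 4 genes with peaks in both lists, beside 2.89 over the 6959 such genes of the table. For H3K4me3 the sums were 67.0 and 76.1 kb, a ratio of 1.14 beside 1.10 over the whole lists, and the median ratio was 1.24 over 7 genes beside 1.09 over all.

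Other genes of the same systems were counted in 7 lists of 107 genes, of which the table names 91. H3K27ac promoter peaks were present at 70 of the 91, and at 9295 of all 14100 genes. Of these 70, 29 were shared, 35 belonged to hypoxia alone (50.0%, against 47.0% of the 9295) and 6 to normoxia alone (8.57% against 6.04%). H3K4me3 promoter peaks were present at 83 of the 91, and at 10846 of all 14100 genes. Of these 83, 79 were in both lists (95.2%, against 91.4% of the 10846).

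The heme lists held the largest shares of promoters with H3K27ac in hypoxia only, 71.4% and 70.0%. The share was 47.0% over all genes with an H3K27ac promoter peak. The share of each heme list rests on few genes, and no difference between lists was tested. In heme synthesis 5 of 7 genes were in hypoxia only. They included ALAS1, which encodes the first enzyme of the pathway (1450 bp), and FECH, which inserts iron into the ring (826 bp). Over all annotated peaks ALAS1 had H3K27ac in both lists, 2622 bp in normoxia and 2735 bp in hypoxia. CPOX, coproporphyrinogen oxidase, was in the normoxia list only with 999 bp, the widest such peak in the 7 lists, and UROS, uroporphyrinogen synthase, was the 1 gene of the lists with H3K4me3 in normoxia only (290 bp). In heme breakdown and iron handling 7 of 10 genes were in hypoxia only, led by PCBP2, which delivers iron to ferritin (2884 bp). They also included SLC40A1, the iron exporter ferroportin (1324 bp), and BLVRA, biliverdin reductase (440 bp). Counting every annotated peak, PCBP2 had H3K27ac in both lists, 361 bp in normoxia and 7449 bp in hypoxia. FTH1, the ferritin heavy chain, was in both lists with 336 and 1441 bp. HMOX2, the constitutive heme oxygenase, had no H3K27ac promoter peak.

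The list of NRF2 regulators and related factors held 5 genes with H3K27ac promoter peaks. Of these, 3 were in the hypoxia list only (60.0%, against 47.0% of all genes with such a peak). The 3 were the small MAF gene MAFK (1503 bp), RBX1, of the ubiquitin ligase that acts with KEAP1 (1455 bp), and NFE2L1, a factor related to NRF2 (733 bp). Counting every annotated peak, NFE2L1 had H3K27ac in both lists, 423 bp in normoxia and 3444 bp in hypoxia. CUL3, the scaffold of the KEAP1 ligase, and MAFG had promoter peaks in both lists. Their widest promoter peaks were wider in normoxia (1247 against 870 bp and 1041 against 660 bp). Over all annotated peaks both had more H3K27ac covered length in hypoxia, CUL3 with 3813 against 1814 bp and MAFG with 1695 against 1413 bp. BACH1, a heme-regulated repressor of HMOX1 in mammals, had no H3K27ac promoter peak, and its H3K4me3 promoter peak of 229 bp was in the hypoxia list only. Over all its annotated peaks BACH1 had H3K4me3 in both lists, 4.82 kb in normoxia and 5.73 kb in hypoxia. Its H3K27ac away from the promoter was also in both lists, 287 bp in normoxia and 2924 bp in hypoxia.

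Of 20 glutathione gene promoters with H3K27ac, 8 were shared, 9 were hypoxia only and 3 normoxia only. Of all genes with an H3K27ac promoter peak, 46.9%, 47.0% and 6.04% were in these states, the background for the H3K27ac counts below. GLO1, glyoxalase 1, had 1990 bp in hypoxia only, while GSR, glutathione reductase, had 860 bp and HAGH, glyoxalase 2, 225 bp in normoxia only. H3K4me3 promoter peaks at MGST2, a microsomal glutathione transferase (218 bp), and GPX8, a glutathione peroxidase family member (190 bp), were in hypoxia only. That was the state of 5.15% of all genes with an H3K4me3 promoter peak. Over all its annotated peaks GPX8 had more H3K4me3 covered length in normoxia, 345 against 190 bp. Of 14 thioredoxin and peroxiredoxin gene promoters, 7 were shared and 7 were hypoxia only, with SESN1, a sestrin (1998 bp), and TXNRD3 (1753 bp) widest. Counting every annotated peak, SESN1 had H3K27ac in both lists, 2040 bp in normoxia and 15273 bp in hypoxia. Of the NADPH supply genes, 5 of 7 were in both lists. Among these, NNT, the mitochondrial transhydrogenase, had 181 bp of H3K27ac in normoxia and 3195 bp in hypoxia over all its peaks. PGD, 6-phosphogluconate dehydrogenase, had 2101 and 2000 bp. Of 7 promoters in the superoxide and quinone list, 3 were shared, 2 were hypoxia only and 2 normoxia only. The last were CCS, the copper chaperone of SOD1 (196 bp), and EPHX1, an epoxide hydrolase (186 bp). Over all its annotated peaks EPHX1 had more H3K27ac covered length in hypoxia, 2253 against 186 bp.

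**Figure D4:**
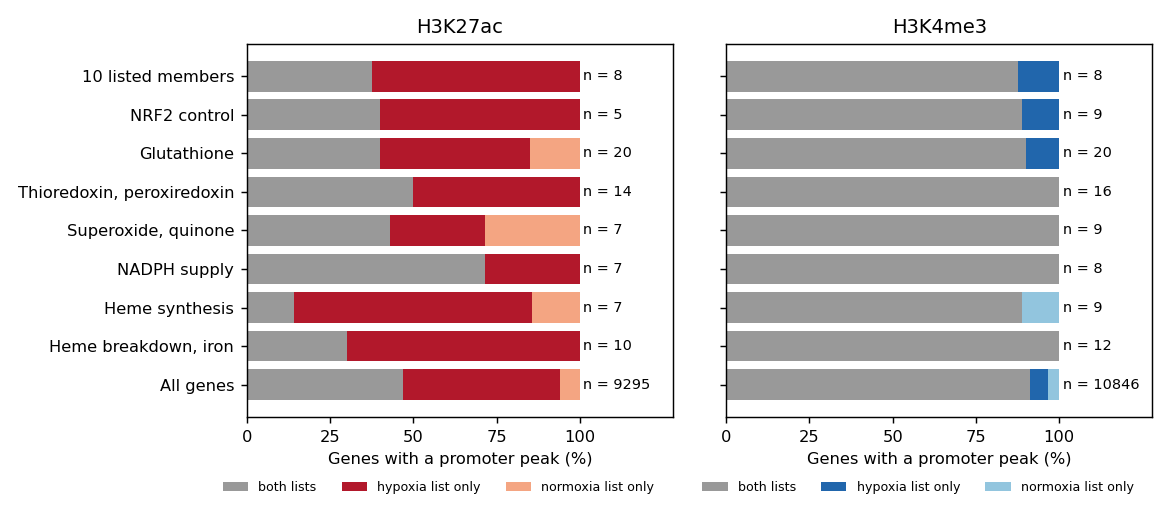
Share of genes with a promoter peak (x axis, percent, number of genes at the right) whose peak was shared, hypoxia only or normoxia only, for the 10 genes, the 7 lists and all genes of the table. For H3K27ac, 5 of the 8 genes are in hypoxia only against 47.0% of all genes with a promoter peak, and for H3K4me3 nearly every bar is in both lists.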

How the data were processed

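The deposited table was used as it stands. Its columns, per the file headers, hold for each peak the position, list, genomic class, transcript, distance to the transcript start, gene ID and symbol. The submitters' processing notes name MACS2, ChIPseeker and the build galGal6 but give neither versions nor roles. Pooling of libraries, threshold and control are not given in the sources used here.

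Each interval was counted once per gene and list, which turned 173 lines of the 9 genes into 151 peaks. Starts were read as BED and are printed 1-based. A peak named for several genes counted for each. Covered length is the summed peak width. It is not a measure of signal strength, which the table does not hold. It was not corrected for read depth or peak threshold, which are unknown here. Transcript starts and strands were derived from the distances. The assignment of promoter states was tested on simulated peaks with known states. The simulated promoter peaks lay over plus strand starts, so minus strand starts and the overlap rule were not exercised. Python 3.11.15, pandas 2.3.3 and matplotlib 3.10.9 were used.

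The genes and lists were chosen with earlier results of these data known. All 10 genes were to be named. Other genes were named by the widest promoter peak in 1 condition only (up to 5 per mark and direction) or by the 3 highest and 3 lowest covered ratios. A few list members and neighbouring genes were added after their values were seen. RefSeq names of GRCg7b were used for gene order only, and no sequence was used.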

Additional observations from a re-analysis of the deposited data

How the results depend on the processing

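Under the alternatives for the 9 genes, the H3K27ac count in the hypoxia list only was 4 or 5. It was 4 with a window of 1000 bp, where HMOX1 had no promoter peak. The shares of promoter states over all genes were worked out at the reported settings only. Whether a count lies near that background under an alternative was therefore not tested. The count in both H3K27ac lists was 3, 4 over every annotated peak (SOD1 joined), and 1 with a shared stretch of at least 50% of each peak required, which GCLC and GCLM did not meet although each has a promoter peak in both. TXNRD1, the only gene with H3K4me3 in hypoxia only, left that state (count 0) with peaks of at least 500 bp and with the longer list reduced to its widest peaks, since its peak is 193 bp wide. That reduction also brought the ratio of H3K27ac peak numbers of the 9 genes from 3.8 to 1.73. By design it leaves the H3K27ac lists with equal numbers of peaks, where the whole lists had a ratio of 2.95. The H3K27ac ratio of GCLM was 3.23 over all its peaks and 0.114 by its first start alone, an alternative chosen after the table was seen.

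For the 7 lists, the H3K27ac count in both was 29, but 47 over every annotated peak and 5 with 50% overlap. The count in hypoxia only was 35, and 15 with the reduced list. The count in normoxia only was 6, and 2 at 500 bp. For H3K4me3, hypoxia only was 3, and 1 over every annotated peak and at 500 bp. Normoxia only was 1, then 2 and 0 under the same settings. For these counts too the shares over all genes under the alternatives were not worked out. Whether the changes follow those of all genes was not tested.

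No paired analysis was possible because the table holds 1 list per mark and condition with no value per library. For the same reason no replicate was left out. The depth and peak threshold of the lists are not known here.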

Other observations

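Among the genes of the 7 lists with H3K4me3 promoter peaks in both conditions, the 3 lowest and 3 highest ratios of H3K4me3 covered length over all annotated peaks were the following. It was lower in hypoxia at IDH2, the mitochondrial isocitrate dehydrogenase that yields NADPH (7.07 kb in normoxia and 1.99 kb in hypoxia), at GSTK1, a glutathione transferase (2.95 and 1.70 kb), and at PGD (3.29 and 1.96 kb). It was higher in hypoxia at TXN2, mitochondrial thioredoxin (673 and 3415 bp), at CHAC1, which degrades glutathione (0.668 and 2.82 kb), and at SLC11A2, an iron transporter (0.604 and 2.09 kb). Among the genes with H3K27ac promoter peaks in both conditions, the highest H3K27ac ratios, beside NNT, were at TKT, transketolase (0.516 and 4.17 kb), and GLRX, glutaredoxin (1551 and 11953 bp). The lowest ratios among those same genes, beside PGD, were at MAFG (1.41 and 1.70 kb) and NQO2, a quinone reductase (2.02 and 2.81 kb). PRDX6, a peroxiredoxin, had 1319 bp of H3K27ac in normoxia and no H3K27ac peak under its name in hypoxia. It therefore has no ratio. Its promoter counts as shared because its peak overlapped a hypoxia peak under another name. Apart from PRDX6, these genes were named for their ratios, so the values are a description with no test.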
